A study of Mus musculus with 6 samples.

Results

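The genes of rod and cone phototransduction were followed in retinas with oxygen-induced retinopathy (OIR) and in control retinas. The set was a list of 36 gene symbols, found in the deposited gene column among 31053 mouse genes, and all 36 were present. Of these, 10 were listed as the rod form of a component, 11 as the cone form, and 15 as used by both photoreceptor types. The 15 include Gucy2f, whose cone values are read as background below. The samples were retinas at postnatal day 17 (P17). In the OIR group, pups breathed 75% oxygen between P7 and P12, followed by 5 days of room air. The control group had no oxygen treatment. Each group held 3 samples, each sample pooled the retinas of 2 mice, and strain and sex were not given in the labels. Since the study's methods call the 3 samples of a group biological replicates, p-values measure the spread between pools of mice.

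A photon absorbed by a visual pigment (an opsin with bound retinal) activates the G protein transducin, which activates the phosphodiesterase PDE6. PDE6 breaks down cyclic GMP, and the cyclic nucleotide-gated channels of the outer segment close. The pigment is then phosphorylated by a kinase and capped by arrestin, the RGS9 complex switches transducin off, and guanylate cyclases with their calcium-sensing activators restore cyclic GMP. Rods and cones build this cascade largely from different genes, and mouse cones mix a short-wave opsin (Opn1sw) and a middle-wave opsin (Opn1mw) along the dorsal to ventral axis of the retina.

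Gene expression was measured by droplet single-cell RNA sequencing of 3' ends, in counts of unique molecular identifiers (UMIs), where 1 UMI stands for 1 captured transcript. The samples held between 15788524 and 42606878 UMIs, and 38569 cells were kept. Cells were clustered without the 36 genes, and clusters were named from markers that are not among them, as rod-like (25491 cells) and cone-like (1847 cells), called rods and cones hereafter. The labels give the tissue as endothelial cells, but endothelial-like cells made up only 197 of the cells kept, so the samples held dissociated whole retina. Both replicate 1 samples stood apart, with median UMIs of 3958 and 4850 per cell against 1449.5 to 2354 in the others, and with the largest shares of cones, 6.04% and 11.4% against 1.27% to 3.62%. Between 9 and 34 cell barcodes were shared by any pair of samples. Raw UMIs were summed per sample over rods and over cones, and levels are given as CPM, the UMIs of a gene per 1000000 UMIs of that sum. Because tags were counted at 3' ends, levels are compared between samples and not between genes. A gene was called where edgeR's quasi-likelihood test gave a Benjamini-Hochberg adjusted p under 0.05 over all genes tested and its log2 fold change was 0.25 or more in either direction.

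In rods, most phototransduction genes had lower values in the OIR group. The fitted log2 fold change was negative for 26 of the 34 members tested, against 49.9% of all 11566 genes, and the members' median was -0.32 against 0.00047 for all genes. It was negative for 10 of 10 rod-form members and for 14 of 15 members used in both cell types, but for 2 of 9 cone-form members. With library sizes alone in place of TMM scaling, which moved the median of all genes to 0.16, 23 of the 34 members were negative, among them all 10 rod-form and 11 of the 15 shared members. Of the members, 2 (Grk1 and Rgs9bp) were called lower, where 1.07% of all genes were called lower. No member was called higher, where 1.72% of all genes were, and DESeq2 called none higher either. At an unadjusted p under 0.05, which 18.5% of all genes reached, 13 members were lower and 0 higher. In 8 members every OIR sample lay below every control sample, as in 4.72% of all genes. In 1 member every OIR sample lay above every control sample, a share not counted over all genes. Cnga3 and Slc24a2 had too few UMIs in rods to be tested.

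**Figure D1:**
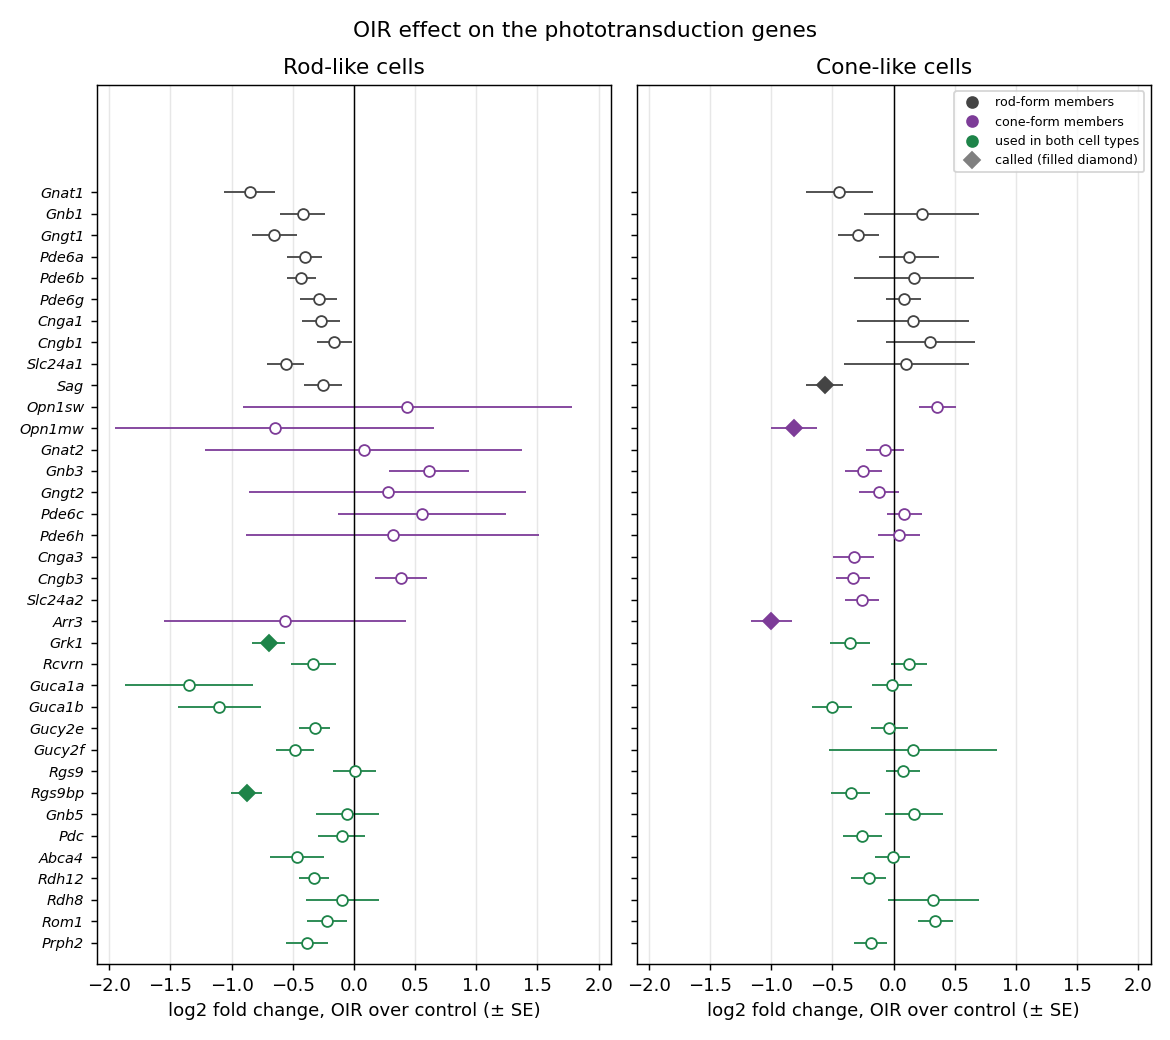
Log2 fold change of OIR over control (x axis) with its standard error, for each phototransduction gene (y axis) in rods (left) and cones (right), coloured by role. Filled diamonds mark called genes, 2 in rods and 3 in cones. In rods the rod-form members all lie left of 0, between -0.85 and -0.16.

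Equal replicate numbers marked samples that deviated together in rods (correlations of 0.477, 0.243 and 0.345 between same-numbered samples), and a fit with the replicate number as a block is therefore given beside the first. OIR replicate 2 with control replicate 3 (0.21) and OIR replicate 3 with control replicate 2 (0.228) correlated nearly as much, so that a contrast of replicate 1 with the others cannot be told apart from pairing by each number. With the block, 13 members were called lower, where 5.28% of all genes were, and 1 higher, where 5.49% were. The members called lower were 5 rod-form genes (Gnat1, Gngt1, Pde6a, Pde6b and Slc24a1), 7 genes used in both cell types (Grk1, Rgs9bp, Guca1a, Guca1b, Gucy2e, Gucy2f and Abca4) and the cone arrestin Arr3, which in rods lay at the level of background RNA. Gnb3, the cone transducin beta subunit that bipolar cells also express, was the 1 called higher (0.64, adjusted p = 0.0139).

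The 2 genes called in both fits act in shutting the response off. Grk1 (chromosome 8, 13405081 to 13421951, plus strand, build GRCm38) encodes the pigment kinase, which phosphorylates the activated pigment. Its level in rods was 319, 318 and 272 CPM in OIR replicates 1 to 3 and 461, 474 and 384 CPM in the controls. The OIR samples all lay below the lowest control. The means were 303 ± 26.9 and 440 ± 49.0 CPM (SD, n = 3 each), a log2 fold change of -0.69 ± 0.13 (SE, edgeR adjusted p = 0.0331). With the replicate block the change was -0.70 (adjusted p = 0.00166). The call was lost without OIR replicate 2 or 3 or without control replicate 2 or 3 (-0.79 to -0.61, adjusted p = 0.0668 to 0.18).

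Rgs9bp (chromosome 7, 35578993 to 35585582, minus strand) encodes the membrane anchor of RGS9, the protein that speeds the inactivation of transducin. It measured 173, 165 and 144 CPM in the OIR samples and 254, 289 and 250 CPM in the controls. The groups did not overlap, and the gap between the highest OIR and the lowest control sample was wider than the spread within either group. The log2 fold change was -0.88 ± 0.13 (SE, edgeR adjusted p = 0.0127), and -0.88 with the replicate block (adjusted p = 0.000842). Without each of the same 4 samples the call was lost (-0.92 to -0.79, adjusted p = 0.054 to 0.088). Its partners in the same complex had values near 0, with 0.0053 for Rgs9 (adjusted p = 0.994) and -0.054 for Gnb5 (adjusted p = 0.946).

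Of the transducin subunits of rods, 2 had OIR samples that all lay below the controls. Gnat1, the rod alpha subunit, measured 2665, 1901 and 1837 CPM in the OIR group and 3585, 3966 and 2841 CPM in the control group. The groups did not overlap, but the first OIR sample lay close to the third control. The log2 fold change of -0.85 ± 0.21 (SE) did not pass the test (edgeR adjusted p = 0.069), and it did with the replicate block (-0.87, adjusted p = 0.00527). The gamma subunit Gngt1 measured 10235, 7755 and 9163 CPM in the OIR group and 11266, 14124 and 12864 CPM in the controls, again without overlap, with a log2 fold change of -0.65 ± 0.18 (SE, edgeR adjusted p = 0.0997). The beta subunit Gnb1 overlapped between the groups, at -0.42 ± 0.18 (SE, edgeR adjusted p = 0.263).

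The rod effector, channel and exchanger genes were also negative. The PDE6 subunits Pde6a, Pde6b and Pde6g lay at -0.40, -0.43 and -0.29, and of these only Pde6b had OIR samples that all lay below the controls, 1247 to 1364 CPM against 1548 to 1612 CPM. The channel subunits Cnga1 and Cngb1 were at -0.27 and -0.16. Slc24a1, the rod exchanger that removes calcium through the outer segment membrane, was at -0.56 ± 0.15 (SE), with 1018 to 1175 CPM in the OIR group and 1242 to 1642 CPM in the controls. Sag, the rod arrestin, was at -0.25 and overlapped. None of these was called in the fit without the block, where the edgeR adjusted p ranged from 0.0852 for Slc24a1 to 0.627 for Cngb1. DESeq2 called 4 rod-form members lower (Gnat1, Gngt1, Pde6b and Slc24a1) beside Grk1 and Rgs9bp, where it called 2.84% of all genes lower.

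Among the genes of calcium feedback, the guanylate cyclase activators had the largest negative values and also the widest spread. Guca1a lay between 254 and 799 CPM in the OIR group and between 829 and 2078 CPM in the control group, at -1.35 ± 0.52 (SE, edgeR adjusted p = 0.238). Guca1b lay between 644 and 1396 CPM in the OIR group and between 1382 and 2500 CPM in the control group, at -1.10 ± 0.34 (SE, edgeR adjusted p = 0.131). In both genes the replicate 1 sample was the highest of its group. With the replicate block both were called (adjusted p = 0.00788 and 0.000274). The cyclases Gucy2e and Gucy2f were at -0.32 and -0.48, and recoverin (Rcvrn), which restrains the pigment kinase, was at -0.33. The retinoid genes were at -0.47 (Abca4), -0.33 (Rdh12) and -0.096 (Rdh8), the disc rim proteins at -0.38 (Prph2) and -0.22 (Rom1), and Pdc, which binds transducin beta and gamma, at -0.10. None of the genes named in these 2 sentences was called in the edgeR fit of all 6 samples and all rods without the block. Abca4, Rcvrn, Rdh12 and Prph2 were called lower in replicates 2 and 3 alone, where 1330 of 11709 genes were called lower. In that fit Xist, which marks female cells, went fully with the group. Gucy2f was called lower in rod cluster 2 alone (-0.64, adjusted p = 0.0297), where 142 of 9186 genes were called lower.

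**Figure D2:**
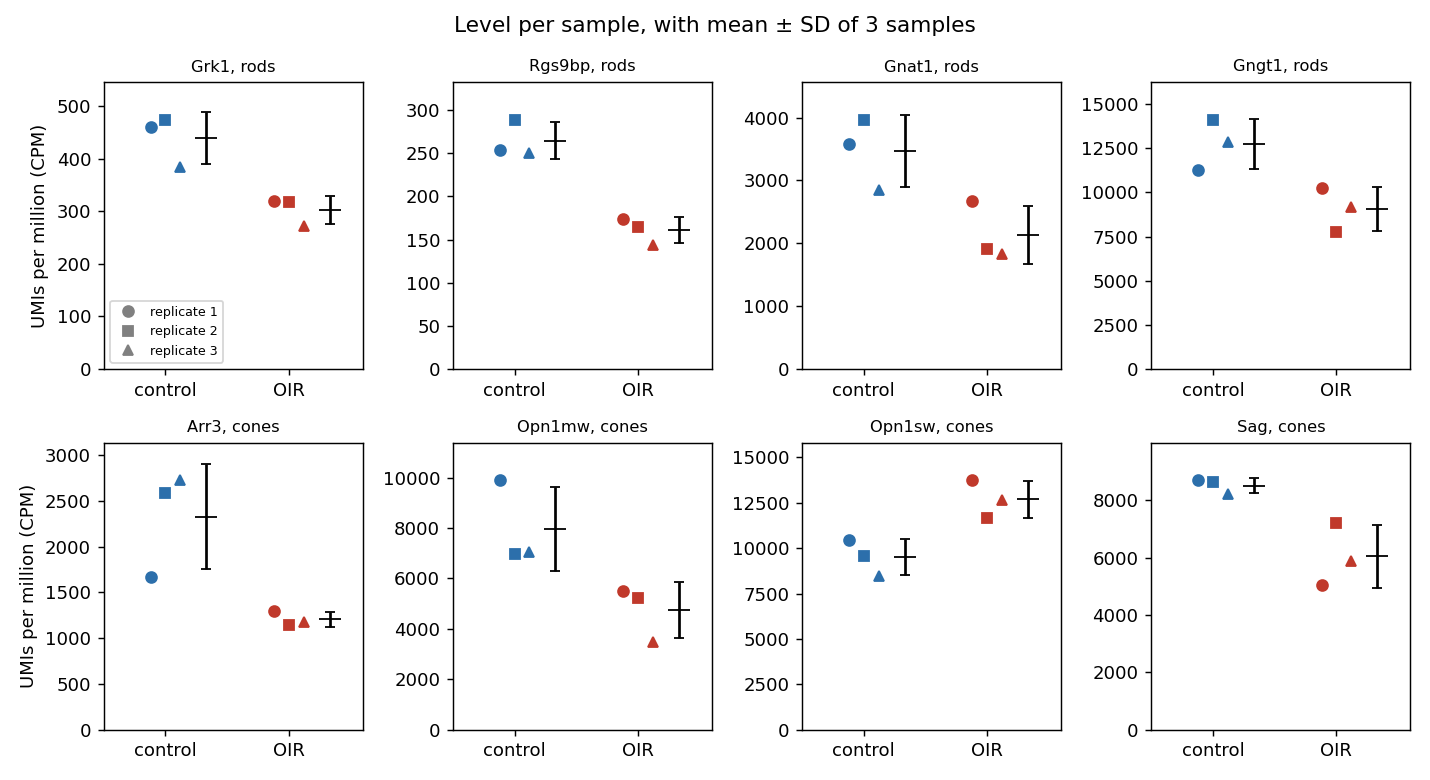
Level in CPM (y axis, from 0) of 4 genes in rods and 4 in cones, by group. Symbols mark replicates 1 to 3, and the black bar is the mean ± SD of 3 samples. Grk1 and Rgs9bp in rods, and Arr3, Opn1mw and Sag in cones, are the called genes. Gnat1, Gngt1 and Opn1sw were added after their values were seen. The groups do not overlap in any of the 8 panels, which were not chosen to show all members.

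As a share of all rod UMIs, the 36 genes made up 8.50%, 7.62% and 7.42% in the OIR group and 9.24%, 9.37% and 8.59% in the control group. Every OIR sample lay below every control sample, with means of 7.85% ± 0.577 and 9.06% ± 0.419 (SD, n = 3 each, exact permutation p = 0.1, the smallest that 3 against 3 samples can give). The rod-form members alone summed to 45445 to 48533 CPM in the OIR group and 53014 to 58854 CPM in the controls. The RNAs Malat1 and Meg3, which stay in the nucleus, made up 4.89% to 6.25% of rod UMIs in the OIR group and 6.06% to 11.8% in the control group (exact permutation p = 0.2), and their part in the results was not tested. Xist, which marks female cells, was below 1 CPM in the OIR group and in control replicate 1 but 1441 and 1814 CPM in control replicates 2 and 3, so that sex went partly with the group. With a term for Xist, the group effect compares the OIR samples with control replicate 1 alone, the only control low in Xist. Grk1 and Rgs9bp measured -0.75 and -0.81 in rods in that fit. Without control replicate 1, or in replicates 2 and 3 alone, Xist went fully with the group.

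The rods came from 4 clusters, and their mix differed between samples. Cluster 1 held 73.1%, 38.5% and 30.7% of rods in OIR replicates 1 to 3 and 78.3%, 15.1% and 10.6% in the controls, whereas cluster 0, with a median of 1262 to 1697 UMIs per cell against 2139 to 3226 in cluster 1, held 7.41%, 38.3% and 38.3% and 6.52%, 51.3% and 60.5%. The comparison was therefore repeated in each cluster alone, an alternative chosen after the data were seen. The clusters hold cells of the same samples and are not separate replicates. Of all genes, 937 of 9996, 123 of 10567, 296 of 9186 and 54 of 6675 were called in clusters 0, 1, 2 and 7. The medians of all genes lay between -0.0054 and 0.014. Of the 25 rod-form and shared members, 22 had negative values in all clusters where they could be fitted. Rgs9bp was called in each of the 4 clusters (-0.91 to -0.75). Every OIR sample lay below every control sample in each, a share not counted over all genes by cluster. Gnat1 lay between -0.93 and -0.72 over the clusters and was called in 2 of them, as were Grk1 (-0.93 to -0.46) and Guca1b (-1.18 to -0.95).

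**Figure D3:**
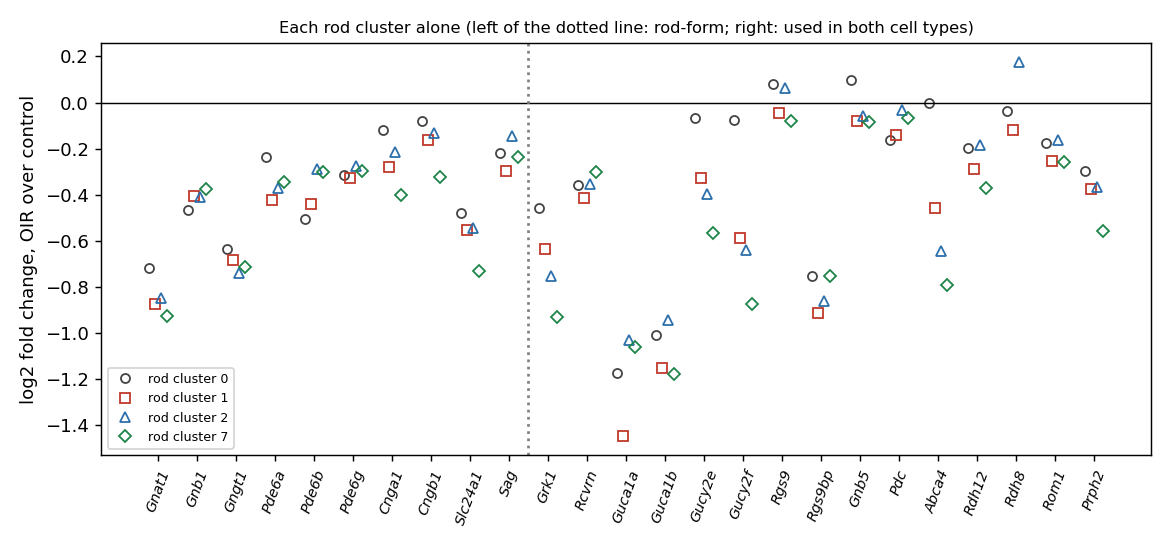
Log2 fold change of OIR over control (y axis) for the 25 rod-form and shared members (x axis), fitted in each of the 4 rod clusters alone (symbols). For 22 of the 25 members the symbols all lie below 0.

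In cones, negative and positive values were both common. The fitted log2 fold change was negative for 20 of 36 members, against 49.6% of all 9357 genes, with a median of -0.023 (17 of 36 and 0.039 with library sizes alone, where the median of all genes was 0.060). It was negative for 8 of 11 cone-form members (median -0.25), 9 of 15 members used in both cell types (median -0.011) and 3 of 10 rod-form members (median 0.11), of which 7 lay at the level of background RNA in cones. Called lower were 3 members, the cone arrestin Arr3, the middle-wave opsin Opn1mw and the rod arrestin Sag, where 0.652% of all genes were called lower. No member was called higher by edgeR or by DESeq2, where edgeR called 1.06% of all genes higher. At an unadjusted p under 0.05, which 11.2% of all genes reached, 7 members were lower and 2 higher. The OIR samples lay below all controls in 5 members (5.73% of all genes). They lay above all controls in 3 members, a share not counted over all genes. As a share of cone UMIs the 36 genes made up 8.44% to 8.89% in the OIR group and 8.82% to 8.99% in the control group (exact permutation p = 0.2), which overlapped.

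Arr3 (chromosome X, 100605497 to 100618493, plus strand) encodes the arrestin that caps cone pigments. Its level in cones was 1300, 1144 and 1174 CPM in OIR replicates 1 to 3 and 1666, 2590 and 2722 CPM in the controls. The OIR samples were close to each other and all lay below the lowest control, which was replicate 1. The means were 1206 ± 82.9 and 2326 ± 576 CPM (SD, n = 3 each), a log2 fold change of -1.0 ± 0.17 (SE, edgeR adjusted p = 0.00178). With a term for Xist the value was -0.53, a comparison with control replicate 1 alone. Without control replicate 1 it was -1.19 (edgeR adjusted p = 4.64e-08), and Xist then went fully with the group. Arr3 was called without each of the 6 samples in turn.

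Opn1mw (chromosome X, 74127464 to 74150760, plus strand) encodes the middle-wave pigment. It measured 5509, 5224 and 3459 CPM in the OIR samples and 9885, 6961 and 7062 CPM in the controls. All OIR samples lay below all controls, with means of 4730 ± 1110 and 7969 ± 1660 CPM (SD, n = 3 each). The log2 fold change was -0.81 ± 0.19 (SE, edgeR adjusted p = 0.0266), and the call was lost without OIR replicate 3 (-0.62, adjusted p = 0.201), without OIR replicate 2 (-0.85, adjusted p = 0.104) and without control replicate 3 (-0.89, adjusted p = 0.0789). With a term for Xist the log2 fold change was -1.13, a comparison with control replicate 1 alone, the highest control.

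Opn1sw (chromosome 6, 29376671 to 29388468, minus strand), the short-wave pigment, went the other way. It measured 13734, 11676 and 12667 CPM in the OIR samples and 10458, 9595 and 8484 CPM in the controls. The OIR samples all lay above the controls, but the log2 fold change of 0.36 ± 0.15 (SE) did not pass the test (edgeR adjusted p = 0.347). Both opsins together measured 16126 to 19243 CPM in the OIR group and 15546 to 20343 CPM in the control group, which overlapped (exact permutation p = 1).

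The balance of the opsins was compared within the cones of each sample. Opn1sw made up 71.4%, 69.1% and 78.6% of opsin UMIs in the cones of OIR replicates 1 to 3, and 51.4%, 58.0% and 54.6% in the controls. Every OIR sample lay above every control. The exact binomial 95% intervals, which cover counting error only, did not overlap between any of the samples (68.6% to 69.6% in OIR replicate 2 and 57.4% to 58.5% in control replicate 2). The means were 73.0% ± 4.94 and 54.6% ± 3.27 (SD, n = 3 each), a difference of 18.4 points (exact permutation p = 0.1, the smallest that this design can give). Cell by cell, 57.7%, 56.3% and 61.6% of cones held more Opn1sw than Opn1mw UMIs in the OIR group and 42.2%, 48.3% and 46.1% in the control group. After each cone was thinned to 1000 UMIs the shares were 55.5% to 62.5% and 40.2% to 48.3%, and the groups again did not overlap. Where in the retina each cone lay was not recorded, and a different mix of dorsal and ventral cones cannot be told apart from a change within cones.

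**Figure D4:**
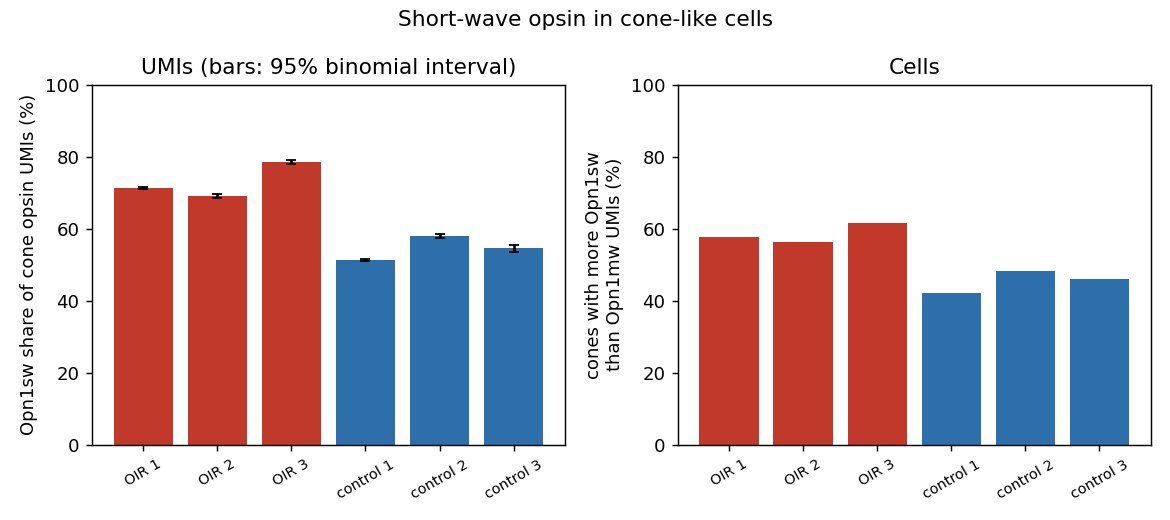
Left, share of Opn1sw among cone opsin UMIs (y axis, %) in each sample, with the exact binomial 95% interval. Right, share of cones with more Opn1sw than Opn1mw UMIs (y axis, %). The 3 OIR samples (red) lie above the 3 controls (blue) in both, at 69.1% to 78.6% against 51.4% to 58.0% on the left.

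Sag (chromosome 1, 87803680 to 87845158, plus strand), which cones use beside Arr3, measured 5031, 7216 and 5868 CPM in the cones of the OIR group and 8685, 8618 and 8206 CPM in the controls. The groups did not overlap, and the controls were the closer to each other. The log2 fold change was -0.56 ± 0.15 (SE), with an edgeR adjusted p of 0.0498, just inside the threshold. The call was lost in 10 of 18 alternatives. Among these were fits without OIR replicate 1 or 3 or control replicate 2 or 3 (edgeR adjusted p = 0.109 to 0.291). With a term for Xist, a comparison with control replicate 1 alone, the value was -0.60. In rods the same gene was at -0.25 (adjusted p = 0.418).

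The rest of the cone cascade showed no called change. The transducin subunits Gnat2, Gnb3 and Gngt2 lay at -0.070, -0.25 and -0.12, and the phosphodiesterase subunits Pde6c and Pde6h at 0.086 and 0.041. The channel subunits Cnga3 and Cngb3 were at -0.33 and -0.33, and the exchanger Slc24a2 was at -0.26. For Cngb3 and Slc24a2 the OIR samples lay below the controls, at 256 to 273 CPM against 275 to 343 CPM and at 137 to 159 CPM against 168 to 177 CPM, with edgeR adjusted p of 0.33 and 0.499. Of the members used in both cell types, Guca1b (-0.50), Grk1 (-0.35) and Rgs9bp (-0.35) had the most negative values and Rom1 (0.34) the most positive, with edgeR adjusted p from 0.131 to 0.406. Guca1a, which spread widely in rods, was at -0.011 in cones, with 4946 to 5873 CPM in the OIR group and 4438 to 6414 CPM in the control group.

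The promoters of the members that the results turn on are shown for the sites of photoreceptor transcription factors. Each is the stretch of 250 bases before the gene start in RefSeq on GRCm38, read 5' to 3' on the gene's own strand, and capitals mark TAATCC or its reverse complement GGATTA (the core that the factor CRX recognises) and TGCTGA or its reverse complement TCAGCA (one arm of the site of the factor NRL). The windows are chr8:13404831-13405080 (plus strand) for Grk1, chr6:3993758-3994007 (plus) for Gngt1, chrX:100605247-100605496 (plus) for Arr3, chrX:74127216-74127465 (plus) for Opn1mw, chr6:29380514-29380763 (minus) for Opn1sw and chr1:87803430-87803679 (plus) for Sag.
Grk1: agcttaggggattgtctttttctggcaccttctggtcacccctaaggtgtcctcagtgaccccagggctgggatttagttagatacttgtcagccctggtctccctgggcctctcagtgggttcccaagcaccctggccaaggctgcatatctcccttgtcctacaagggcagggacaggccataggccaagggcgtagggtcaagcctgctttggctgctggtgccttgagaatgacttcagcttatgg
Gngt1: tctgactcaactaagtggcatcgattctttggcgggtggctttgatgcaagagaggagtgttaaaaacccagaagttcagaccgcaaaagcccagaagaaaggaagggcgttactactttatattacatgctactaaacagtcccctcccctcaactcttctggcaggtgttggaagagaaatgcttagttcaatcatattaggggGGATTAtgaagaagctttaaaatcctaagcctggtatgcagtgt
Arr3: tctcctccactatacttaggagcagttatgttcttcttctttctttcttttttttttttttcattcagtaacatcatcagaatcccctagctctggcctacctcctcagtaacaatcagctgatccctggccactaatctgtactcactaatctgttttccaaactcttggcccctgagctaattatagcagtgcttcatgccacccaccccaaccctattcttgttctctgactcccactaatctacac
Opn1mw: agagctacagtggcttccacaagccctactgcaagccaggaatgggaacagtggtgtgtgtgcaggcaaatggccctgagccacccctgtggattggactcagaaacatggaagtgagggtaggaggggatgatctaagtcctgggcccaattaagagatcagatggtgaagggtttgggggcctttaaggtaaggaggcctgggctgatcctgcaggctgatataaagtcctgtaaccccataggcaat
Opn1sw: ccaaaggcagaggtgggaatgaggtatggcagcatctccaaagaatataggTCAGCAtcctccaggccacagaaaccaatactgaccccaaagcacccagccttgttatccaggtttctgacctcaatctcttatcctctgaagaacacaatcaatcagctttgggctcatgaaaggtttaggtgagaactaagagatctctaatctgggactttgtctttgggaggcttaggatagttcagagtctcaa
Sag: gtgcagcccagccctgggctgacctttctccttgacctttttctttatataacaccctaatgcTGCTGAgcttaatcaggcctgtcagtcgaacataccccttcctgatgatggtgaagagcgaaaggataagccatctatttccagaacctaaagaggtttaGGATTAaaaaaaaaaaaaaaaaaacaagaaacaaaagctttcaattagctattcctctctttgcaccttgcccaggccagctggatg

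A CRX core lay in 10 of the 28 windows of members (35.7%; 26 genes, Cnga3 and Slc24a2 with 2 windows each), against 6.25% of 32851 windows of all genes. By role it lay in 4 of 7 windows of rod-form members, in 5 of 12 windows of members used in both cell types and in 1 of 9 windows of cone-form members. Gngt1 and Sag held one, whereas Grk1, Arr3 and both opsins held none. The NRL motif lay in 5 of the 28 windows (17.9%) against 16.1% of all windows, and Opn1sw and Sag were among them. No match of one motif overlapped a match of the other in the windows shown. Such a match describes letters and not a bound site. Windows for Gnat1, Pde6a, Pde6c, Pde6g, Gnb3, Cngb3, Rcvrn, Guca1b, Gngt2 and Rgs9bp were not used here.

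Whether the OIR effect differed between cones and rods was tested with both sums of each sample in one edgeR fit. Among the 15 members used in both cell types, 14 had a more positive value in cones than in rods, and 0 were called. Their median difference was 0.41, against -0.00050 for all genes, whose directions were not counted. At an unadjusted edgeR p under 0.05 there were 8 of the 15, against 1221 of all 12064 genes. Rods also express these genes. The rod markers Nrl, Nr2e3 and Esrrb averaged 15.0% of their rod level in OIR cones and 10.5% in control cones. With rod RNA subtracted from the cone sums, the median difference of all 36 members was 0.12, against 0.30 without subtraction. The part of rod RNA in the values of the 15 was not tested. The 15 include Gucy2f (0.74), which lay at the level of background RNA in cones. The rod-form and cone-form members are not counted here by direction, since most of them lay at the level of background RNA in the other cell type. Among the 36 members only Cngb3, a subunit of the cone channel, was called, where 1.48% of all 12064 genes were called in either direction. In rods Cngb3 measured 6.25, 6.96 and 6.52 CPM in the OIR group and 4.04, 5.22 and 4.15 CPM in the control group, from 22 to 85 UMIs per sample. In cones it measured 264, 256 and 273 CPM in the OIR group and 335, 343 and 275 CPM in the controls. Over all rods the OIR samples thus lay above the controls, and in cones they lay below them. Within each rod cluster alone Cngb3 overlapped between the groups, at -0.026 to 0.55 in the 3 clusters where it was fitted. The effect in cones differed from that in all rods by -0.71 ± 0.19 on the log2 scale (SE, edgeR adjusted p = 0.0421). The call was lost in 13 of 16 alternatives, among them with rod RNA subtracted from the cone sums (-0.60, adjusted p = 0.211). The members with the next lowest p were Abca4 (0.50, adjusted p = 0.082), Rgs9bp (0.51, adjusted p = 0.0913) and Rom1 (0.56, adjusted p = 0.0913), all more positive in cones.

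Transcripts of a photoreceptor type in other cells were gauged by genes chosen as markers of rods or of cones. Such transcripts are called background RNA, whether free in the suspension or from cells captured together. The rod transcription factor genes Nrl, Nr2e3 and Esrrb together reached 7.90% to 22.4% of their rod level in cones and 9.01% to 12.6% in Müller glia-like cells, which do not express them. Of the 10 rod-form members, 7 (Gnat1, Gnb1, Pde6a, Pde6b, Cnga1, Cngb1 and Slc24a1) were in cones at 0.95 to 1.27 times the percentage of these markers, taken as the median over samples, and their cone values are therefore read as background. Gngt1, Pde6g and Sag were at 4.10, 5.73 and 4.29 times it. In cones the markers were highest in OIR replicate 2 (22.4%), followed by OIR replicate 3 (14.8%). In the same samples they were at 10.2% and 11.8% in Müller glia-like cells and at 5.81% and 7.97% in bipolar-like cells. The source of the higher values in cones was not tested. With rod RNA subtracted from the cone sums in proportion to these markers, Arr3 and Sag were still called and Opn1mw was at -0.72 (adjusted p = 0.0577).

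Cone transcripts in rods were far fewer. The cone genes Kcne2, Otop3 and Clca3a1 reached 1.23%, 0.388% and 0.466% of their cone level in the rods of OIR replicates 1 to 3 and 1.26%, 0.279% and 0.135% in the controls. They were highest in both replicate 1 samples, which held the largest shares of cones. These cone genes also measured 114 to 199 CPM in bipolar-like cells, against 1316 to 1534 CPM in cones. The part of bipolar RNA in the rod values was not tested. Of the 11 cone-form members, 9 were at 0.70 to 1.34 times the percentage of these markers, and only Gnb3 (7.48 times) and Cngb3 (5.29 times) stood above it. Opsin transcripts in rods thus lay at the level of background, and there too Opn1sw made up 69.7%, 66.2% and 72.9% of opsin UMIs in the OIR group and 52.8%, 41.7% and 54.9% in the control group. Those UMIs came from the same retinas as the cones and are no separate sample. In Müller glia-like cells the groups overlapped in this share (exact permutation p = 0.5). It was 72.0%, 47.4% and 78.7% there in OIR replicates 1 to 3 and 65.3%, 59.1% and 52.6% in the controls.

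**Figure D5:**
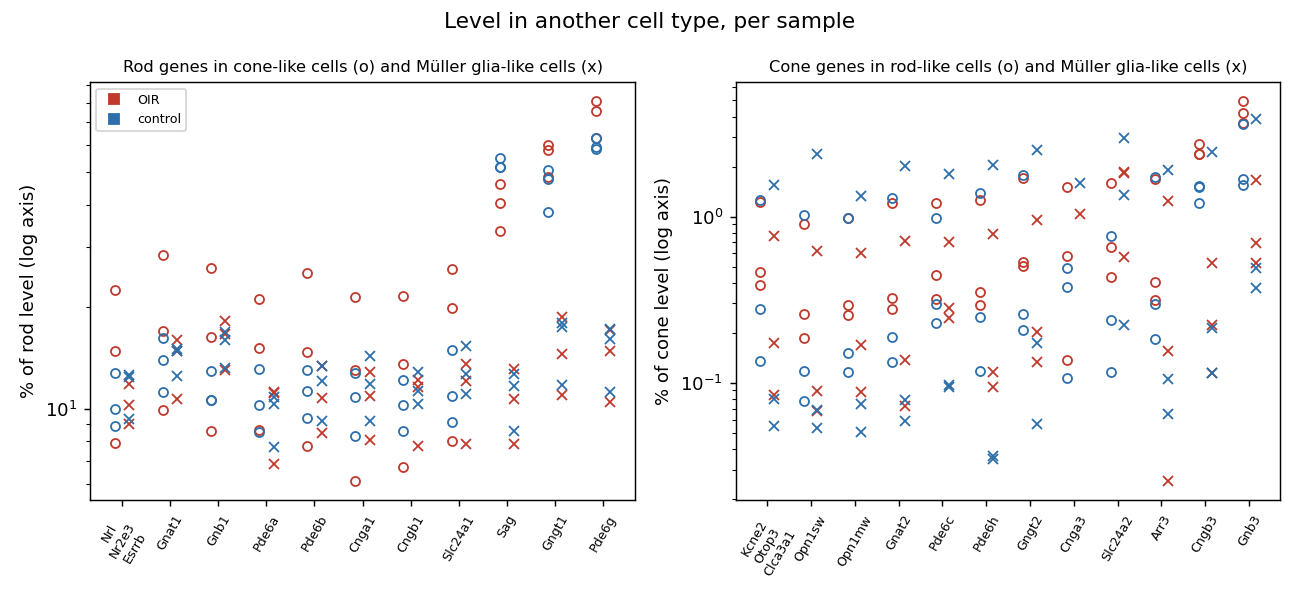
Level per sample as a percentage of the rod level (left) or of the cone level (right, both y axes logarithmic), in the other photoreceptor type (circles) and in Müller glia-like cells (crosses), for marker genes (first position) and members, in OIR (red) and control (blue) samples. Values of 0 are not drawn. Sag, Gngt1 and Pde6g in cones, and Cngb3 and Gnb3 in rods, lie above the marker genes.

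Genes listed as used in both types fell into separate patterns between the photoreceptors. Guca1a stood at 309% to 1950% of its rod level in cones, whereas Guca1b stood at 14.3% to 31.3%. Gucy2e, the cyclase of both types, was at 52.4% to 71.4%, while Gucy2f was at 5.06% to 25.2%, 1.13 times the background. The cone values of Gucy2f are therefore read as background too. Rgs9 was at 103% to 134% and its anchor gene Rgs9bp at 48.8% to 95.7%. In bipolar-like cells Gnb5 was at 44.5% to 70.2% of its rod level, 7.16 times the background there, and Gnb3 at 40.8% to 69.3% of its cone level.

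Other photoreceptor genes were read from 4 lists. Of 14 transcription factor genes tested in rods, Samd7 (1.18, edgeR adjusted p = 0.0456) and Rxrg (2.71, adjusted p = 0.0469) were called higher and 0 lower, and of 15 in cones none was called (5 with an unadjusted p under 0.05). Samd7, a rod repressor gene that also served as a rod marker, measured 370, 706 and 857 CPM in the OIR group and 250 to 254 CPM in the controls. Rxrg, a cone marker, was at 2.76 CPM or less in rods of any sample. Of 18 outer segment and cilium genes none was called in rods or in cones (3 and 5 with an unadjusted p under 0.05), with medians of -0.14 and -0.011. Of 16 inner segment and synapse genes, Cabp4, a calcium sensor of the photoreceptor synapse, was called lower in rods (-0.71, adjusted p = 0.0456), and Atp2b1, a plasma membrane calcium pump gene, was called higher in cones (0.78, adjusted p = 0.00233). Of the visual cycle list, 11 genes were tested in rods with none called (4 with an unadjusted p under 0.05), and of 9 in cones Stra6, a retinol transporter gene, was called higher (1.82, adjusted p = 0.00583), at 13.9 to 22.6 CPM in the OIR group and 1.63 to 5.95 CPM in the control group.

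Marker lists of other cell types were summed in rods and cones. In cones, the 7 Müller markers summed to 314 to 482 CPM in the OIR group and 258 to 304 CPM in the controls, and the 8 cone bipolar markers to 161 to 193 CPM and 99.3 to 145 CPM, so that both were higher in every OIR sample. The same held for the 8 cone markers themselves (3349 to 3622 and 2972 to 3155 CPM) and for the 4 lens markers (0.347 to 141 and 0 to 0.18 CPM). In rods, the 7 rod markers summed to 9548 to 12219 CPM in the OIR group and 9223 to 11598 CPM in the control group, and Müller markers overlapped (281 to 366 and 186 to 404 CPM). The cone markers (130 to 133 and 97.7 to 126 CPM), the 6 retinal pigment epithelium markers (10.5 to 20.8 and 7.68 to 9.83 CPM) and the 4 astrocyte markers (3.14 to 5.09 and 2.02 to 2.59 CPM) were higher in every OIR sample in rods, and lens markers reached 189 CPM in the OIR group and 1.35 CPM in the controls. The part of these other transcripts in the results was not tested.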

How the data were processed

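Per the labels and the paper's methods, dissociated retinas were run on a 10x 3' platform and Cell Ranger made the matrices. The deposited values are raw UMI counts per gene and cell, with mm10 named in the labels. Cells with 500 to 5000 genes and at most 20% mitochondrial UMIs were kept. The 3 samples of each group were joined without correction. Seurat 5.3.0 then integrated the OIR with the control cells on 2000 variable genes less the 11 members among them (15 components, resolution 0.5). A cluster was named where at least 3 markers of a type were raised in it. Scrublet's automatic threshold marked 0 cells in 4 samples, so doublets stayed in, and removing the top scores was an alternative. Counts were summed per sample and cell type and tested with edgeR 4.0.16 (quasi-likelihood, TMM, low-count filter, over all genes). DESeq2 1.42.0 was an alternative. Sums of both cell types were fitted with sample as a block for the test between cones and rods. Shares were compared by two-sided exact permutation tests. The rest were run in Python 3.11.15 and scipy 1.17.1. The fitting code was tested on simulated data. Values per sample were given for members called in rods, in cones or between them, and the other members by ranges and counts. The sample values of Gnat1, Gngt1 and Opn1sw were added after they were seen. The 4 other gene lists were described by their counts and at most 3 called genes. The members and lists were chosen with earlier results of these data known. Pairing by replicate number was read from the correlation of same-numbered samples' deviations, which was over 0.1 for each pair in rods (0.243 to 0.477) and not in cones (0.0461 to 0.163).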

Additional observations from a re-analysis of the deposited data

Results flagged for a closer look

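Cngb3, a subunit of the cone cyclic nucleotide-gated channel, stood out because its OIR effect differed between cell types in a test of the difference itself. The effect in cones minus that in rods was -0.71 on the log2 scale (edgeR adjusted p = 0.0421). The OIR samples were higher in 3 of 3 in rods (0.38) and lower in 3 of 3 in cones (-0.33), and neither change alone passed its own test (adjusted p = 0.383 and 0.33). In rods the gene rested on 22 to 85 UMIs per sample, and within each rod cluster alone the groups overlapped. With rod RNA subtracted from the cone sums the difference was -0.60 and did not pass the test (adjusted p = 0.211).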

How the results depend on the processing

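Counts are of members called, each followed by the number of all genes called in the same fit. A member count is to be read against that number. In fits without control replicate 1, replicates 2 and 3 alone among them, Xist went fully with the group. In rods, 2 members (323 of 11566 genes) were called, against 6 by DESeq2 (680 of 11566) and 5 with no filter on low counts (506 of 19057). In replicates 2 and 3 alone, 18 were called (15 lower and 3 higher, 2620 of 11709). The fit with a term for Xist rests on 1 control, so its counts are not given. In rod clusters 0, 1, 2 and 7 alone, 4, 1, 5 and 2 were called (937 of 9996, 123 of 10567, 296 of 9186 and 54 of 6675). Leaving out 1 sample gave 0 to 7, with 0 without OIR replicate 2 or 3 or control replicate 2 or 3 (37 to 44 genes), 5 without OIR replicate 1 (508 of 11782) and 7 without control replicate 1 (1087 of 11819). In cones, 3 members (160 of 9357 genes) were called, against 1 with no upper limit on genes per cell (55 of 9891), 1 with cells thinned to equal UMIs (13 of 3321) and 1 to 3 when leaving out 1 sample (1 without OIR replicate 3, 77 of 9633). Between cones and rods, 1 member (178 of 12064 genes) was called, against 2 by DESeq2 (78 of 12064), 6 with no filter on low counts (249 of 19629), 20 in replicates 2 and 3 alone (429 of 11862), 0 when clustered with the members (127 of 12114), 0 with no upper limit on genes (69 of 12159), 2 with the top Scrublet scores removed (182 of 11994), 5 with thinned cells (63 of 10121) and 0 to 11 when leaving out 1 sample (0 without OIR replicate 2, 88 of 11889, 11 without OIR replicate 1, 267 of 11942, and 8 without control replicate 1, 344 of 12038). The cause was not tested.

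With the replicate block, 14 members (1292 of 11999 genes) were called in rods and 5 (329 of 9688) in cones, where the samples share only a number. With library sizes alone, the genes called lower were 83 of 579 in rods (124 of 323 with TMM), 37 of 138 in cones (61 of 160) and 143 of 190 between cones and rods (99 of 178). The difference in S-opsin share stayed between 15.6 and 20.3 points, and that in the members' share of rod UMIs between -1.55 and -1.01 points, over the alternatives run. With the mitochondrial limit at 10%, the groups' shares of rod UMIs were no longer fully separated (-1.17 points, exact permutation p = 0.2). The values of Grk1 and Rgs9bp in rods and of Arr3, Opn1mw and Sag in cones kept their sign in the alternatives run, whereas Arr3 in rods, called with the block, ranged from -1.86 to 0.48. The 3 samples a group limit the exact test to p = 0.1, and 89 to 812 cones per sample limit the cone sums.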
